A study of Mus musculus with 12 samples.

Results

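The genes described here are 10 that define epithelial to mesenchymal transition: the transcription factors Zeb1, Zeb2, Snai1, Snai2, Twist1 and Twist2, the cadherins Cdh1, Cdh2 and Cdh11, and the intermediate filament gene Vim. They were taken by name, as the probe sets that the array's annotation assigns to 1 of these symbols alone, and the brightest probe set on average over the 12 arrays stood for its gene. All 10 were measured, by 22 probe sets in all, out of 18193 genes. The study hybridised total RNA of 6 normal lungs and 6 spontaneous tumours of the lung to 1 Affymetrix array each. Every sample came from B6C3F1 mice aged 2 years in a long-term bioassay of the National Toxicology Program. B6C3F1 is the cross of C57BL/6 and C3H mice, the tumours arose in untreated animals, and the labels name no engineered allele and no agent for either group. Separate animals are not stated in the labels. By the sex-linked genes given below the tumours were of both sexes, so they came from more than 1 animal. The p-values reflect only the scatter among these 12 samples, part of which may be technical.

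In epithelial to mesenchymal transition, cells give up tight lateral contacts and take on the shape and motility of connective tissue cells. Cdh1 encodes E-cadherin, the calcium-dependent adhesion molecule of epithelial junctions, and the zinc finger proteins of the Zeb and Snai families bind E-box motifs and repress it, while the Twist proteins are basic helix-loop-helix factors that act in mesoderm and in the same transition. Cdh2 (N-cadherin), Cdh11 (a cadherin of mesenchyme) and Vim (vimentin) are the usual markers of the mesenchymal state. In whole lung most of these are also ordinary genes of resident cells. Cdh1 is a gene of airway and alveolar epithelium, and Zeb and Snai factors and Cdh11 are genes of fibroblasts, muscle and vessels. Cdh2 is a gene of cardiac muscle and, outside the lung, of liver. Vim is a gene of nearly every non-epithelial cell, leukocytes included.

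Of the 10 genes, 7 were lower in tumours, 1 was higher and 2 did not pass. The genes that fell were Zeb1, Zeb2, Snai1, Snai2, Twist2, Cdh2 and Cdh11, and the gene that rose was Cdh1. Each difference is the tumour mean less the normal mean of log2(signal + 16), given with its standard error (n = 6 arrays per group), and a gene was called at a Benjamini-Hochberg adjusted p under 0.05 in limma over all 45037 probe sets. At this threshold 17.5% of all genes were lower in tumours and 12.2% were higher, 29.6% in either direction. The median difference of the 10 genes was -0.96, beside -0.08 over all genes. The signals of the groups did not overlap for 6 of the 10 genes, 5 of them lower and 1 higher in tumours. Over all genes this held for 18.5%, 11.8% lower and 6.77% higher. Of the 22 probe sets 14 were lower and 1 was higher, beside 13.9% and 10.1% of all probe sets. Centring each array on its median signal moved the median difference of all probe sets from -0.06 to 0.13, and the share of calls that were higher in tumours from 41.9% to 61.9%. The 7 falls and the rise of Cdh1 were called under that scaling too, each difference being about that much less negative or more positive.

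**Figure D1:**
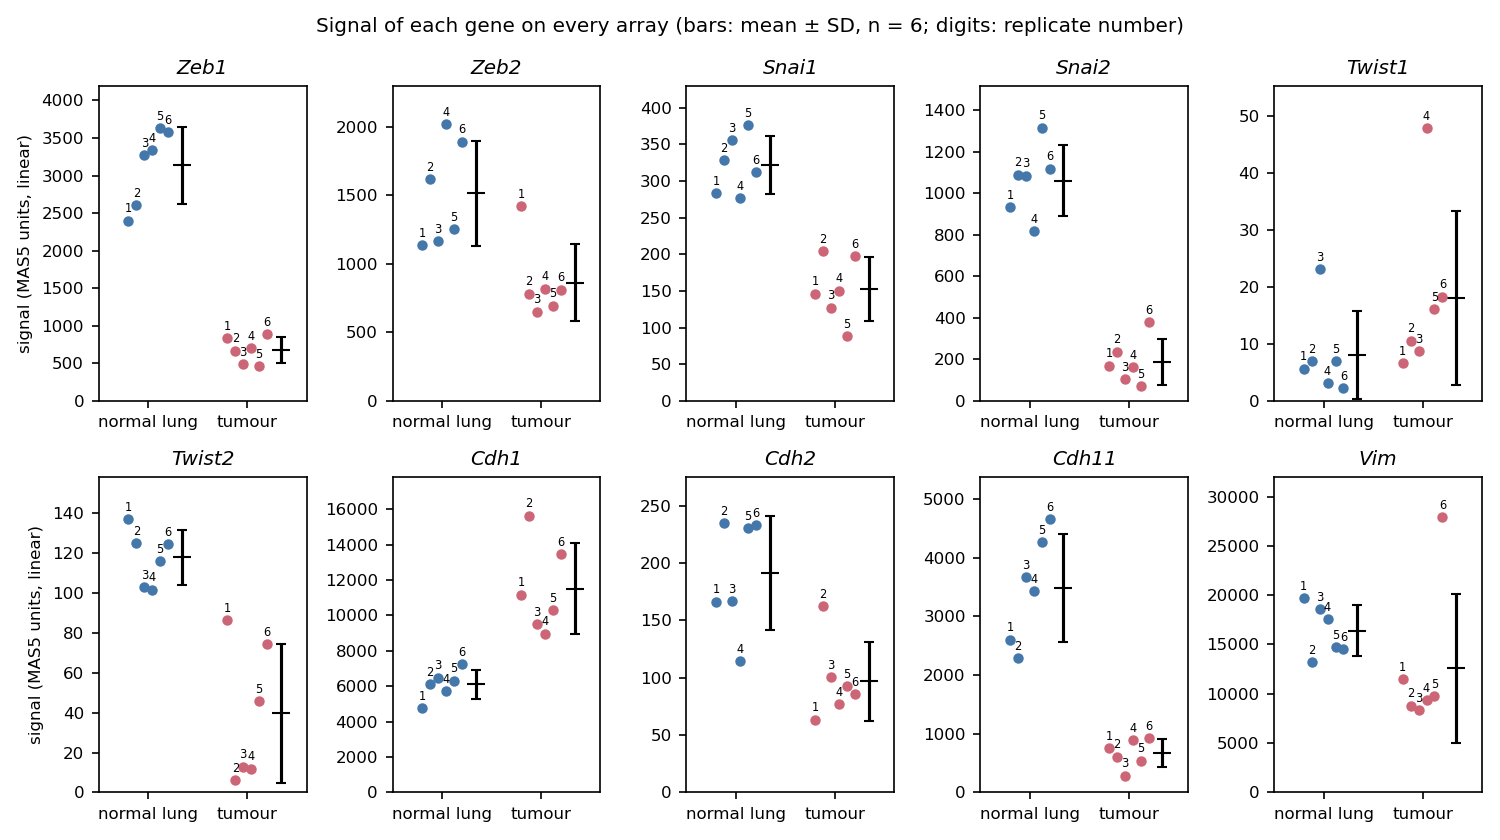
Signal (MAS5 units, linear axis from 0) of the 10 genes on each of the 6 normal lung arrays (blue) and 6 tumour arrays (red), with replicate numbers beside the points and mean ± SD (n = 6) as bars. The groups are apart for Zeb1, Snai1, Snai2, Twist2, Cdh1 and Cdh11, and tumour 6 stands at 27889 for Vim above all other arrays.

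Some arrays stood apart in markers of cell type and sex. Median signals were 151 to 164 in normal lungs and 126 to 150 in tumours. Markers of lung epithelium were bright in both groups, with summed signals of 94794 to 132654 over 10 genes in normal lungs and 137845 to 191207 in tumours. Normal lung 1 had a summed neutrophil signal of 171598 (6 genes), against 22824 or less on the other normal arrays. Normal lungs 2 and 4 had summed hepatocyte signals of 21410 and 24797 (8 genes), against 3558 or less in the other normal lungs, and tumours 5 and 6 had 13155 and 7525. These tumour sums came mostly from Apob (7101 and 3718) and Alb (4901 and 2119), with Fgb at 8.04 and 6.31, whereas normal lungs 2 and 4 had Apob at 67.1 and 209 and Apoa2 at 1234 and 3404. Xist was at 7877 or more in the normal lungs and in tumours 4 and 6, and the Y-linked Eif2s3y at 740 or more in tumours 1, 2, 3 and 5, so the sexes were not balanced between the groups.

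Zeb1, a zinc finger and homeodomain repressor of E-cadherin, fell furthest beyond its error on the brightest probe sets. Its signals in normal lungs 1 to 6 were 2398, 2606, 3274, 3337, 3627 and 3580, and in tumours 1 to 6 they were 832, 668, 486, 704, 465 and 893. Every tumour lay below every normal lung, with a wide gap between the brightest tumour and the dimmest normal lung. The difference was -2.21 ± 0.17 (limma adjusted p = 5.06e-07), 4.64-fold lower, and 2.92% of all genes had a more negative one. Of its other 3 probe sets, 2 also fell (-1.28 ± 0.21 and -1.15 ± 0.21) with no overlap between the groups. The remaining one, at 102 or less on every array, gave -0.09 ± 0.43.

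Zeb2, the paralogue with the same domain layout, fell less on its brightest probe set. Normal lungs 1 to 6 had signals of 1137, 1615, 1166, 2016, 1253 and 1892, and tumours 1 to 6 had 1422, 781, 652, 820, 695 and 811. Tumour 1 lay within the normal range, and tumours 2 to 6 were all beneath it. The difference was -0.81 ± 0.20 (limma adjusted p = 0.00702), 1.75-fold lower. Without normal lungs 2 and 4, the arrays with hepatocyte signal, it was -0.67 ± 0.22 and did not pass (adjusted p = 0.0565). Of the 4 dimmer Zeb2 probe sets, 3 fell by more, with differences of -1.38 ± 0.26, -1.25 ± 0.25 and -1.13 ± 0.24 and no overlap, and the fourth gave -0.73 ± 0.28 (adjusted p = 0.0762). The brightest probe set of Zeb2 therefore gave one of the smaller differences, and the mean over its 5 probe sets gave -1.06.

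The Snai factors both fell, Snai2 the more steeply on its brightest probe set. Snai1 encodes Snail, a short-lived zinc finger repressor of E-cadherin, and its signals in normal lungs 1 to 6 were 283, 329, 356, 276, 376 and 312. In tumours 1 to 6 they were 146, 204, 127, 150, 88.2 and 198. The groups did not overlap, and the difference was -1.04 ± 0.20 (limma adjusted p = 0.00109), 2.06-fold lower. Snai2 encodes Slug, its close relative, and its signals in normal lungs 1 to 6 were 934, 1090.3, 1085, 818, 1316 and 1119. In tumours 1 to 6 they were 169, 238, 104, 163, 69.5 and 378. Again no tumour reached the normal range. The Snai2 difference of -2.57 ± 0.29 (limma adjusted p = 1.32e-05), 5.92-fold lower, was the most negative of the 10 genes on the brightest probe sets. With the mean of a gene's probe sets Snai2 was at -1.90 and Cdh11 at -2.32, so this rank depended on the probe set. The second Snai2 probe set fell as well, by 1.24 on the log2 scale (SE 0.31), with tumour 4 at 191 inside the normal range of 171 to 468.

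The sequence upstream of these regulators is shown because they fell together and because Snai and Zeb proteins bind the E-box CACCTG, which reads CAGGTG on the other strand. The 250 bases before the transcription start come from RefSeq (build GRCm38.p6), whose table held promoters of 5 of the 10 genes (Zeb2, Snai1, Twist1, Twist2 and Vim). Snai1 lies on the plus strand with this stretch at chr2:167537945-167538194, and Twist2 on the plus strand at chr1:91801211-91801460. Capitals mark the E-box.
Snai1: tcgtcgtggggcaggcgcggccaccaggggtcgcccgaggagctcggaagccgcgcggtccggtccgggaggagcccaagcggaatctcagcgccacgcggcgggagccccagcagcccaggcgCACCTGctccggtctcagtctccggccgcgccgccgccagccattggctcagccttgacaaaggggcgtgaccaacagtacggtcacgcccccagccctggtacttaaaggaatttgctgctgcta
Twist2: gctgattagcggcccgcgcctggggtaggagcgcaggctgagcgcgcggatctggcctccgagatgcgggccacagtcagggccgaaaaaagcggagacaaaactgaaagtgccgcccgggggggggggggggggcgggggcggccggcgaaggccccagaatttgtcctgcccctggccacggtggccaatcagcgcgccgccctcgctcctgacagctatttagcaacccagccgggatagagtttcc
The Snai1 stretch held 1 such E-box, whose first base lay 126 bases before the start, and none of the other 7 promoters listed for these genes held it. Of 32851 promoters of the same length, 17.2% held at least 1. A match of letters is a description of the sequence and not a measured binding site.

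The 2 Twist factors differed. Twist2, a factor of dermal and other mesenchyme, had signals of 137, 125, 103, 102, 116 and 124 in normal lungs 1 to 6. Tumours 1 to 6 had 86.5, 6.27, 12.95, 11.96, 45.8 and 74.5, all below the normal range but widely spread. The difference was -1.51 ± 0.37 (limma adjusted p = 0.00749), 2.86-fold lower. Adding Eif2s3y to the fit as a covariate gave a difference of -1.44 ± 0.51, which did not pass (adjusted p = 0.0769). Twist2 signals lay below 149, the median of all probe sets on all arrays, so the added offset of 16 shrinks this difference, which was -2.12 with an offset of 1 and -0.87 with 64.

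Twist1 was near the floor of the measurement. Normal lungs 1 to 6 had signals of 5.67, 6.96, 23.1, 3.08, 6.92 and 2.24, and tumours 1 to 6 had 6.64, 10.5, 8.76, 47.8, 16.1 and 18.3. The groups overlapped, with tumour 4 alone above every normal lung. The difference was 0.46 ± 0.28 (limma adjusted p = 0.268, 95% interval -0.13 to 1.05). Most of these signals lie near or under the offset, and up to 15.9% of the probe sets on an array were under it, which leaves little room to measure a fall. The difference was above 0 in all 23 settings that gave a value and passed in none, from 0.18 with an offset of 64 to 1.11 with an offset of 1. It was 0.26 without tumour 4, and 0.94 with Eif2s3y as a covariate (adjusted p = 0.0684).

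Among the cadherins, E-cadherin moved opposite to the mesenchymal pair. Cdh1 signals in normal lungs 1 to 6 were 4763, 6127, 6475, 5724, 6316 and 7234, and in tumours 1 to 6 they were 11164, 15630, 9507, 8967, 10305 and 13449. The dimmest tumour was above the brightest normal lung. The difference was 0.90 ± 0.15 (limma adjusted p = 4.64e-04), 1.86-fold higher, and it rested on a single probe set. It was called under all 24 alternative settings, between 0.70 and 1.08.

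Cdh2, which joins cardiac muscle cells, neurons and mesenchymal cells, was dim in both groups. Its signals were 166, 235, 167, 114, 231 and 233 in normal lungs 1 to 6 and 63.4, 162, 101, 76.8, 92.6 and 85.5 in tumours 1 to 6. Tumour 2 reached the normal range, and the remaining tumours were beneath it. The difference was -0.88 ± 0.24 (limma adjusted p = 0.0145), 1.85-fold lower, and was close to the threshold after median centring (adjusted p = 0.0498) and quantile normalization (adjusted p = 0.0492). The second probe set gave -0.50 ± 0.27 and did not pass (adjusted p = 0.202). Cdh2 is also a gene of cardiac muscle, which sheathes the pulmonary veins of mice, and the summed signal of 9 cardiac muscle markers was 21169 to 33935 in normal lungs and 362 to 3232 in tumours, with 8 of the 9 lower. Hepatocytes make Cdh2 as well, and their 8 markers summed to 314 to 24797 in normal lungs and 223 to 13155 in tumours, the upper tumour value being mostly Apob and Alb. Without normal lungs 2 and 4, the normal arrays with the most hepatocyte signal, the Cdh2 difference was -0.96 ± 0.26 (limma adjusted p = 0.0227). The part of either tissue in the Cdh2 difference was not tested further.

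Cdh11, the cadherin of fibroblasts and other mesenchyme, fell about as far as Zeb1 and Snai2 on the brightest probe sets. Normal lungs 1 to 6 had signals of 2600, 2288, 3667, 3424, 4258 and 4657, and tumours 1 to 6 had 755, 611, 286, 888, 542 and 923. No tumour came near the normal range, and tumour 3 was the lowest. The difference was -2.40 ± 0.26 (limma adjusted p = 7.37e-06), 5.30-fold lower, and the second probe set fell by 2.23 on the log2 scale (SE 0.26).

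Vim did not pass, and its difference moved with a single tumour and with the probe set. On the brightest probe set normal lungs 1 to 6 had signals of 19685, 13218, 18586, 17588, 14745 and 14514, and tumours 1 to 6 had 11477, 8802, 8323, 9365, 9749 and 27889. Tumours 1 to 5 were below every normal lung, and tumour 6 was above every one. The difference was -0.51 ± 0.25 (limma adjusted p = 0.162, 95% interval -1.05 to 0.02). Without tumour 6 it was -0.77 ± 0.14 and passed (adjusted p = 0.00107). The other 2 probe sets of Vim gave 0.14 ± 0.23 and 0.12 ± 0.25, and without tumour 6 they gave -0.05 ± 0.18 and -0.12 ± 0.18, neither of which passed (adjusted p = 0.886 and 0.697). With Eif2s3y as a covariate the brightest probe set gave -0.12 ± 0.30 (adjusted p = 0.859). Without the 4 tumours with Eif2s3y, which leaves tumours 4 and 6, its adjusted p was 0.995. Against the normal mean, tumour 4 was at -0.79 and tumour 6 at 0.78. The 4 tumours with Eif2s3y were at -0.50 to -0.96, a range that holds tumour 4, so these settings do not separate sex from tumour 6. All 3 probe sets placed tumour 6 highest of the 12 arrays. A fall of Vim in the other 5 tumours was therefore seen on 1 of 3 probe sets, and high Vim in tumour 6 on all of them.

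**Figure D2:**
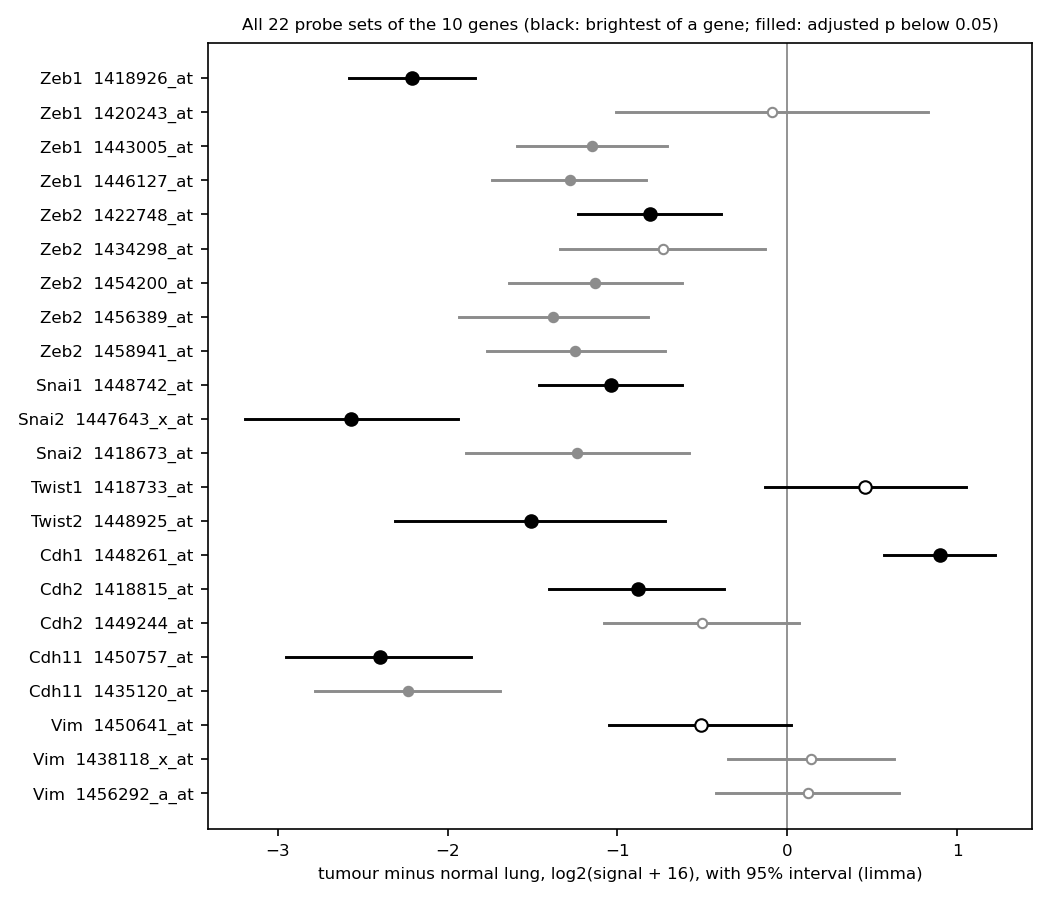
Difference between tumours and normal lungs (log2 scale, points) with its 95% interval (lines) for the 22 probe sets of the 10 genes, the brightest of each gene in black and those with adjusted p under 0.05 filled. Of the 22, 14 were called lower, 1 higher (Cdh1) and 7 were not called, and the 3 Vim probe sets lie on both sides of 0.

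The 6 tumours were not alike in these genes. On the brightest probe sets the SD among tumours was larger than that among normal lungs for 10 of 10 genes on the log2 scale. This held for 69.4% of all genes. It was 6.38 times as large for Twist2, 3.36 for Snai2, 2.86 for Vim and 2.37 for Snai1, and 1.05 and 1.09 for Cdh2 and Zeb2. Twist2 and Snai2 spanned 2.20 and 2.21 log2 units from the lowest to the highest tumour, Vim 1.74 and Cdh11 1.64, and Cdh1 only 0.80. A dimmer probe set each of Zeb1, Zeb2 and Cdh2 had the larger SD in normal lungs (0.98, 0.67 and 0.50) and not in tumours (0.65, 0.39 and 0.35). The other dimmer probe sets had the larger SD in tumours, that of Snai2 by less (0.63 against 0.49). Each tumour is 1 array, so a difference between 2 tumours has no test.

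On the brightest probe sets tumour 5 was the lowest for Zeb1, Snai1 and Snai2, and tumour 3 the lowest for Zeb2, Cdh11 and Vim. Tumour 6 was on those probe sets the highest for Zeb1, Snai2, Cdh11 and Vim and the lowest for none. Its place in Cdh11 depended on the probe set, since the dimmer one put it second lowest, at 73.3, and tumour 2 highest, at 131. A dimmer Zeb1 probe set put tumour 5 highest and tumour 3 lowest. Dimmer Zeb2 probe sets put tumour 2, 3, 5 or 6 lowest, and a dimmer Vim probe set put tumour 2 lowest. Tumour 2 was the highest for Snai1, Cdh1 and Cdh2 on the brightest probe sets, and tumour 1 for Zeb2 and Twist2. The dimmer Cdh2 probe set put tumour 5 highest. Tumour 1 stood apart in Zeb2, at -0.05 from the normal mean where the others were at -0.83 to -1.16, and the 5 Zeb2 probe sets placed it highest or second highest of the tumours. Against the normal mean, Snai2 was at -1.43 in tumour 6 and -3.64 in tumour 5. The dimmer Snai2 probe set ordered the tumours otherwise, with tumour 4 highest and tumour 3 lowest, so the order of tumours in Snai2 depended on the probe set.

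**Figure D3:**
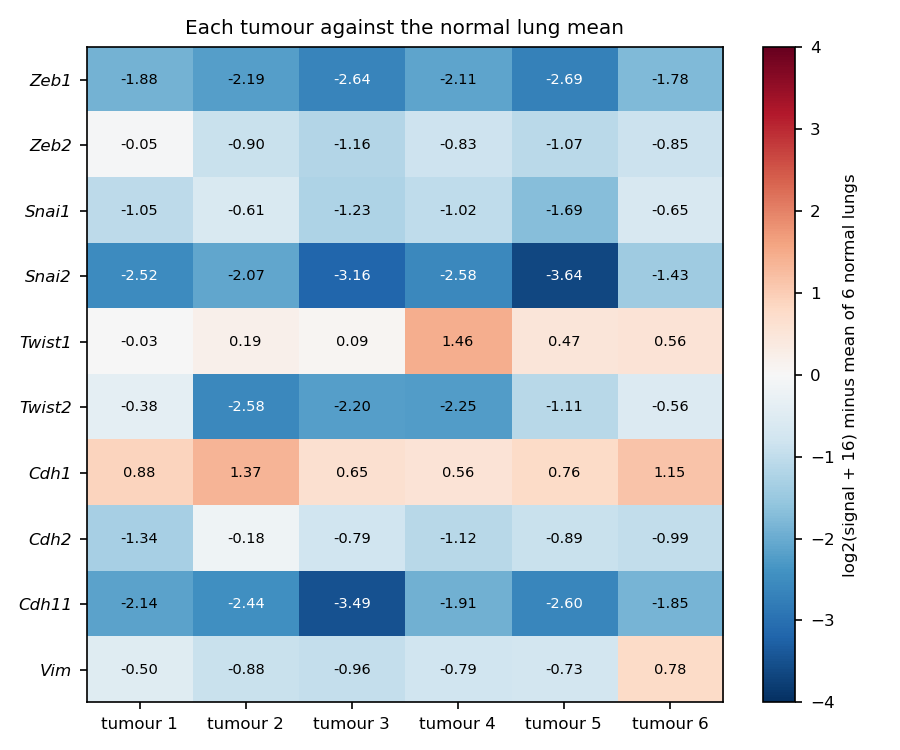
Log2(signal + 16) of each gene in each tumour minus the mean of the 6 normal lungs (colour and number, blue lower and red higher). Zeb1, Zeb2, Snai1, Snai2, Twist2, Cdh2 and Cdh11 are below that mean in all 6 tumours, Zeb2 by only 0.05 in tumour 1. Cdh1 is above it in all 6, and Vim is at 0.78 in tumour 6 and at -0.50 to -0.96 in the others.

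The regulators' known action on Cdh1 gives a further question, whether tumours with more of a repressor had less Cdh1. Over the 6 tumours, 9 relations with Cdh1 were computed, and 8 of the 9 Pearson correlations were positive. The Snai1 relation had r = 0.69 (exact permutation p = 0.121, adjusted over the 9 relations 0.617) and rho = 0.60 (exact permutation p = 0.242, adjusted 0.918), and r = -0.20 without the 2 tumours farthest from the median of Cdh1. The Snai2 relation had r = 0.68 (exact permutation p = 0.140, adjusted 0.617) and rho = 0.71 (exact permutation p = 0.136, adjusted 0.918), and r = -0.03 without those 2 tumours. For Zeb1 r was 0.43 (exact permutation p = 0.374, adjusted 0.708), and for Zeb2 it was 0.10 (exact permutation p = 0.875, adjusted 0.896). Without the 2 tumours farthest from the median of Cdh1, 5 of the 9 correlations were positive. Cdh2 went from 0.60 to -0.47, Twist2 from 0.06 to 0.97 and Vim from 0.38 to 0.79, so over 4 tumours the coefficients moved widely in either direction. By exact two-sided permutation 0 of the 9 relations passed with either coefficient, and 0 were under 0.05 before adjustment. The single negative one was that of Twist1, a gene near the floor of the measurement, at r = -0.40 (exact permutation p = 0.454, adjusted 0.708). In whole-tissue RNA these coefficients cannot tell repression within a cell from the mix of cells in a tumour.

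Cell type markers moved with these genes. Of 12 endothelial markers 12 fell, with a median difference of -3.10 and summed signals of 64964 to 88394 in normal lungs and 5801 to 15149 in tumours. Among 11 fibroblast markers 9 fell, with a median of -2.89 and sums of 75228 to 93054 and 3503 to 21420. For 10 markers of smooth muscle and pericytes, 8 fell and Rgs5 rose, with sums of 18943 to 32278 and 8749 to 14473. Tumour 3, lowest for Cdh11, had the lowest fibroblast sum, 3503, and tumour 5 the next, 7803. The highest fibroblast sum, 21420, was in tumour 4. Tumour 6, highest for Zeb1, Snai2 and Cdh11 on the brightest probe sets, had 14211. No endothelial, fibroblast or muscle marker was under the offset in every tumour. Of 9 measured lymphocyte markers 7 fell, and of 6 neutrophil markers none passed. In whole-tissue RNA, fewer cells of a type and less RNA per cell cannot be told apart, and the part of these cell types in the falls of the Zeb, Snai and Cdh11 genes was not tested.

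Epithelial and macrophage markers moved the other way. Of 10 lung epithelial markers 6 rose and none fell. The rises were mostly of general epithelial genes, Epcam most clearly, from 1482 ± 48.3 to 7656 ± 2299 signal units (SD, n = 6; difference 2.30 ± 0.18, limma adjusted p = 5.02e-07). Of the lung markers proper, the surfactant gene Sftpb rose (0.49 ± 0.16), while Sftpc (-0.33 ± 0.18), Sftpa1 (0.09 ± 0.28), Cldn18 (-0.09 ± 0.24) and Nkx2-1 (0.20 ± 0.23) did not pass. The part of epithelial content in the rise of Cdh1 was not tested. Of 10 macrophage markers 7 rose and Csf1r fell, and their summed signal was 12032 to 19340 in normal lungs and 25834 to 39347 in tumours. Macrophages make vimentin, and the part of this rise in the Vim result was not tested. Tumour 6, where Vim was highest, had a macrophage sum of 28302, within the range of the other tumours, and the lowest endothelial sum, 5801. Its neutrophil sum of 9773 was the highest among tumours. Its mesothelial sum of 12594 was also the highest of all arrays, 12120 of it from Msln alone. Of 7 mesothelial markers 5 fell between the groups and none rose, with a median difference of -3.13. In tumour 6 each of those 5 was below every normal lung.

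Genes of the wider transition program were counted in the same way. Of 24 epithelial genes that are lost when cells go through the transition, 15 rose and none fell, with a median difference of 0.95. This list shares 5 genes with the lung epithelial markers (Cldn3, Cldn7, Epcam, Krt18 and Krt8), all of which rose. Beside Epcam the 15 genes that rose included Cldn3 (1.29 ± 0.17), a tight junction claudin, Marveld3 (1.45 ± 0.19), a tight junction protein, and St14 (1.39 ± 0.18), the membrane protease matriptase. Of 18 measured genes that are gained, 4 fell, 2 rose and 12 did not pass, with a median of 0.08. Over all genes 17.5% fell and 12.2% rose, and the counts for gained genes were near those shares. Those that fell included Ddr2 (-1.97 ± 0.18), a collagen receptor, Mmp2 (-1.21 ± 0.15), a gelatinase, and the muscle actin Acta2 (-1.65 ± 0.20), and those that rose were the fibrillar collagen Col5a2 (1.13 ± 0.18) and the membrane metalloproteinase Mmp14. All named differences are from limma, with adjusted p-values between 5.02e-07 and 0.0105.

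**Figure D4:**
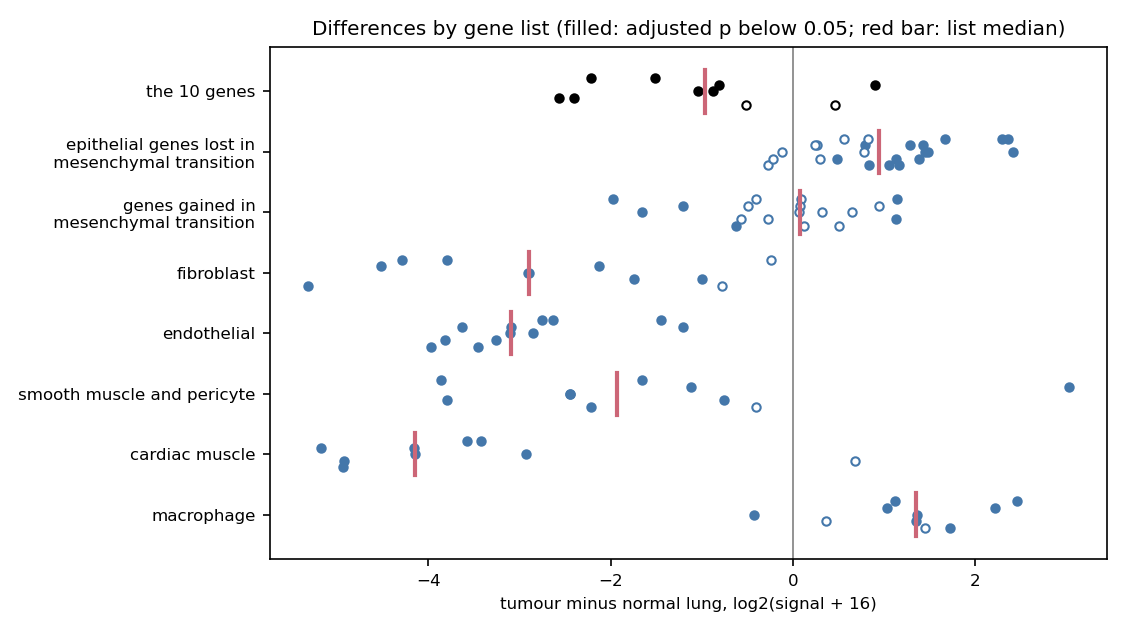
Difference between tumours and normal lungs (log2 scale) of the 10 genes (black) and of genes in 7 lists (blue), filled where adjusted p was under 0.05, with each list's median as a red bar. The medians are -0.96 for the 10 genes, 0.95 for epithelial genes lost in the transition, 0.08 for genes gained, -2.89 for fibroblast and -3.10 for endothelial markers.

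Of 17 other cadherins measured 5 fell and none rose, with a median of -0.44. Over all genes 17.5% fell and 12.2% rose, the shares to set beside these counts and those of the catenins. Cdh5, the cadherin of endothelial junctions, fell from 3996 ± 641 to 484 ± 215 signal units (SD, n = 6; difference -3.10 ± 0.25, limma adjusted p = 5.54e-07), and Cdh20 (-1.62 ± 0.32), Cdh22 (-1.42 ± 0.29) and Cdh13 (-0.70 ± 0.17), the anchored T-cadherin, fell with adjusted p of 0.00179 to 0.00623. Among 8 catenins, which tie cadherins to the cytoskeleton, Jup (plakoglobin) fell (-0.83 ± 0.17, limma adjusted p = 0.00208) and Ctnnal1 rose (0.64 ± 0.20, adjusted p = 0.0286). Ctnnb1, the beta-catenin that binds the E-cadherin tail, gave 0.33 ± 0.12 and did not pass (adjusted p = 0.0651).

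Partners and inducers of the regulators held genes called in each direction, where over all genes 17.5% fell and 12.2% rose. Of 22 partners, corepressors and other transition regulators 6 fell and 2 rose, with a median of -0.06. The Id proteins, which bind helix-loop-helix factors and block their contact with DNA, were divided: Id2 rose from 1995 ± 505 to 14545 ± 5022 signal units (SD, n = 6; difference 2.79 ± 0.26, limma adjusted p = 2.55e-06), and Id4 (-2.81 ± 0.27) and Id3 (-1.18 ± 0.16) fell. Foxc2, a forkhead factor of mesenchyme, fell too (-1.47 ± 0.23). Of 10 genes of TGF-beta signalling, the main inducer of the transition, 4 fell and 1 rose. The receptor gene Tgfbr1 rose (1.30 ± 0.15, limma adjusted p = 1.47e-05), and the co-receptor gene Tgfbr3 (-2.41 ± 0.29), the ligand gene Tgfb3 (-1.44 ± 0.25) and the inhibitor gene Smad7 (-0.89 ± 0.22) fell. Of 9 other intermediate filament genes and vimentin partners 3 fell, Des (-2.44 ± 0.37) of muscle, Synm (-2.41 ± 0.44) and Nes (-2.05 ± 0.42), and none rose.

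Genes most like a member over the 12 arrays were found by the root mean square distance between log2 values, each taken from the gene's normal lung mean, among 11525 other genes brighter on average than the median probe set. Nearest to Zeb1 were Prkg1 (0.19 log2 units apart), Sh3bp5 (0.21) and Nebl (0.23). Nearest to Cdh1 were Iars2 (0.14), Cct4 (0.15) and Mtx2 (0.16), and nearest to Snai1 were Sbf2 (0.14), Pxdc1 (0.16) and Pcbp4 (0.17). Snai2 had Adamtsl5 (0.23), Arap3 (0.31) and Cdr2 (0.37) nearest, and Zeb2 had Acap2 (0.22), Ppp1r12c (0.24) and Man2a1 (0.25). The genes closest to Vim were Erc1 (0.26), Usp1 (0.27) and Phka2 (0.29), and those closest to Cdh2 were Plcb3 (0.25), Timeless (0.28) and Zdhhc18 (0.29). The dim Twist1 had Gemin5 (0.24), Tia1 (0.32) and Zfp637 (0.32), and Twist2 had Ciart (0.37), Ighv14-2 (0.45) and Zcchc24 (0.47), the loosest matches. Nearest to Cdh11 were 2410004I01Rik (0.25), Jcad (0.29) and Zeb1 itself, at 0.30, the only case in which 1 of the 10 genes was among the 3 nearest of another, though Twist1, Twist2 and Cdh2 were too dim to be candidates.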

How the data were processed

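RNA from 12 samples was labelled with biotin by a one-cycle protocol and hybridised to 1 array each, per the labels' protocols. The deposited intensity values are MAS5 signals per probe set on a linear scale, per the submitters' processing notes, and version and settings are not given in the sources used here. The 2% trimmed means lay between 497 and 498 on all arrays, so no further scaling was applied. Of 45101 probe sets, 64 array controls were left out and no filter on low values was set. Gene symbols came from GEO's platform annotation: 34945 probe sets had 1 symbol, 932 several and 9160 none, and of those with 1 symbol 34741 matched RefSeq (GRCm38.p6) by gene identifier with 0 changed. Of the 10 members, 7 had a mean above 149, the median signal.

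log2(signal + 16) was tested in R 4.3.3 by limma 3.58.1 (lmFit, then eBayes with trend, two-sided, 6 arrays per group), with Benjamini-Hochberg adjustment over 45037 probe sets. Correlations used exact permutation (Python 3.11.15, numpy 2.4.6, pandas 2.3.3), and figures matplotlib 3.10.9. The fit was tested on simulated data. The number of arrays limits the precision. The alternatives tried were other offsets, median centring, quantile normalization, no trend, leaving out dim probe sets, array weights, the replicate number as a block, the mean of a gene's probe sets, leaving out each array, normal lungs 2 and 4 or the 4 tumours with Eif2s3y, and Eif2s3y as a covariate. The members and gene lists were chosen with earlier results of these data known. Genes were named by a rule: all 10 members with every probe set, up to 4 genes of smallest adjusted p in each list, Xist and Eif2s3y, and the 3 genes most like each member. Msln, Mmp14, Csf1r, Apob, Alb, Fgb, Apoa2, the lung markers proper and the genes given in the closing section were named after their values were seen.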

Additional observations from a re-analysis of the deposited data

Results flagged for a closer look

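In 3 of the 20 sets of 6 arrays (10 genes in 2 groups) the highest array stood apart from the rest by more than Dixon's 95% critical value for 6 samples, where chance flags about 1 in 20. Vim in tumours was the clearest: tumour 6, at 27889, was separated from the next tumour, at 11477, by 0.734 of the range of the 6 tumours on the log2 scale. Zeb2 in tumours was next, with tumour 1 at 1422 and the gap to the next tumour, at 820, equal to 0.707 of the range. Twist1 in normal lungs was the third, with normal lung 3 at 23.1 and a gap of 0.698 of the range, all 6 signals being near or under the offset of 16.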

How the results depend on the processing

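The count of 7 genes lower was between 6 and 8 under all 24 alternatives, and the count of 1 gene higher did not move. Of the 238 values of single genes under these alternatives, 235 kept their direction and their side of the threshold and 0 reversed. The exceptions were Vim without tumour 6 (-0.77, now passing), Zeb2 without normal lungs 2 and 4 (-0.67) and Twist2 with Eif2s3y as a covariate (-1.44), the last 2 no longer passing; the cause was not tested. The filter on dim probe sets left Twist1 and Twist2 out. Replicate numbers did not pair the arrays (correlations of same-numbered deviations -0.02 to 0.02), and with the replicate block 7 genes were lower and 1 higher. Over all probe sets, 4529 were higher and 6279 lower; with Eif2s3y as a covariate 2603 and 4069, after median centring 7431 and 4566, and without normal lungs 2 and 4 the count higher was 3003. The count of genes with the larger SD in tumours, 10, was 8 to 10 without 1 array and 9 or 10 with other offsets or median centring, settings added after seeing the data. The 0 relations with Cdh1 stayed 0 under other offsets and median centring. Signal near the offset limits Twist1, Twist2 and Cdh2, and 6 arrays per group limit all of them.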

Other observations

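Several genes tied to the transition varied widely between tumours and are given here as values. Cdh17, the cadherin of liver and intestine, had a signal of 6056 in tumour 6, while tumours 1 to 5 had 24.4 to 134 and the normal lungs 7.41 to 93.6. Cdh16, the kidney-type cadherin, reached 3443 in tumour 3 and 3366 in tumour 5. It was 734 in tumour 1, 634 in tumour 4, 107 in tumour 2, 94.1 in tumour 6 and 127 to 306 in normal lungs. Neither passed as a difference between the groups (1.33 ± 0.97 and 1.49 ± 0.75, limma adjusted p = 0.372 and 0.178).

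Of the 18 measured genes gained in the transition, 9 were highest in tumour 6 among the tumours and 6 in tumour 2. Of the 24 epithelial genes 10 were highest and 1 lowest in tumour 2, while 4 were highest and 8 lowest in tumour 6. No share over all genes is given for these counts, so whether they are unusual was not tested. Tumours 2 and 6 had the lowest array weights (0.48 and 0.54) and median signals (126 and 132) of all arrays. They were extreme in other lists too. Tumour 6 was lowest among tumours for 11 endothelial markers, and tumour 2 highest for 6 markers of smooth muscle and pericytes. Grhl2, an epithelial transcription factor, was at 404 in tumour 6, below every normal lung (559 to 676) and every other tumour (1257 to 1611). The splicing regulators Esrp1 and Esrp2 were lowest among tumours there, at 996 and 841, but above every normal lung (highest 781 and 826). Fn1, encoding fibronectin, was at 18401 there against 6691 to 10621 in the other tumours, S100a4 at 3267 against 927 to 1394, and Tnc, encoding tenascin C, at 713 against 256 to 490. Col1a1, a fibrillar collagen, reached 4066 in tumour 2 and 3763 in tumour 6, with 938 to 1672 in the others. Tumours 2 and 6 were both high in some of these genes, with Krt19, a keratin of simple epithelia, at 23018 and 25086 against 2577 to 5224 in the others, Plec, encoding the filament linker plectin, at 7042 and 6142 against 2398 to 2649, and Cdh1 at 15630 and 13449, its 2 highest signals. Each tumour is a single array, so these differences have no test.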
